A study of Mus musculus with 8 samples.

Results

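Caspases and the proteins that switch them on or hold them back were followed through 8 genes: the initiator caspases Casp2, Casp8 and Casp9, the executioner caspase Casp6, the activator Apaf1, the inhibitor antagonist Diablo, and the inhibitors Xiap and Birc2. Members were the probe sets that the platform annotation assigns to exactly 1 of these genes, which gave 19 of the 45101 probe sets on the array. The samples were mouse germinal vesicle (GV) oocytes, immature oocytes whose nucleus is still intact, 4 samples untreated and 4 kept in milrinone for 48 h. Milrinone blocks the phosphodiesterase that breaks down cAMP in the oocyte, which keeps meiosis arrested. Labelled cRNA made from total RNA was hybridised to single-colour Affymetrix arrays, 15 µg each, so every level is a share of the hybridised cRNA. The labels give no strain, age or animal for either group and no oocytes cultured without the drug, so milrinone, culture and elapsed time cannot be told apart. The labels do not say that replicates were separate collections, so the spread behind each p-value may be technical.

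Caspases are proteases made as inactive precursors. In the mitochondrial route, cytochrome c joins the protein encoded by Apaf1 into the apoptosome, which activates caspase-9, while death receptors at the cell surface activate caspase-8 and both routes lead to executioner caspases. Inhibitor of apoptosis (IAP) proteins such as XIAP block active caspases until Diablo, also called Smac, leaves the mitochondria and displaces them. In the ovary these genes are studied because most oocytes are lost by cell death, and mice lacking Casp2 keep more of them.

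No member was detected to change between untreated and milrinone-cultured oocytes. The messages of Casp2 and Casp8 were listed on every array. With the deposited scaling, their mean levels were nearly the same in both groups. The mean intensity of Birc2 was 240.8 ± 83.8 on the untreated arrays and 150.01 ± 25.3 after milrinone (SD, n = 4 each), and the 4 tested probe sets of Xiap had log2 differences from -0.55 to 0.50. None of the 10 tested member probe sets passed the limma test at an adjusted p of 0.05 (0 higher and 0 lower, adjusted p from 0.483 to 0.978), where 0.117% of all 16288 tested probe sets were called lower and 0% higher. At an unadjusted p under 0.05 in limma there were 2 of the 10, 1 lower and 1 higher, against 9.63% of all tested probe sets (4% lower and 5.62% higher). The median log2 difference, milrinone minus untreated, was -0.019 over the 10 and 0.063 over all tested probe sets. Of the 10, 6 lay below 0, against 38% of all tested.

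Many cells of the deposited table are empty, and listed here means that the cell of a probe set holds a value. An empty cell gives no level and no upper limit. Probe sets listed on at least 3 of the 4 arrays in each group were tested, which 10 of the 19 were, standing for 7 of the 8 genes, where 36.2% of all 45037 probe sets other than controls were. The exception was Casp6. Of the 9 untested probe sets, 2 were empty on all arrays, both of Casp9 (35.5% of all probe sets were so), and 7 were listed on some. All 8 arrays listed 9 of the 19 members and 32% of all probe sets. On single arrays 12 to 14 of the 19 had a value in untreated samples and 11 to 13 in milrinone samples, while of all 45101 probe sets 41.9 to 51.6% had one in untreated and 41.3 to 43.1% in milrinone samples. The groups overlap in both counts.

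**Figure D1:**
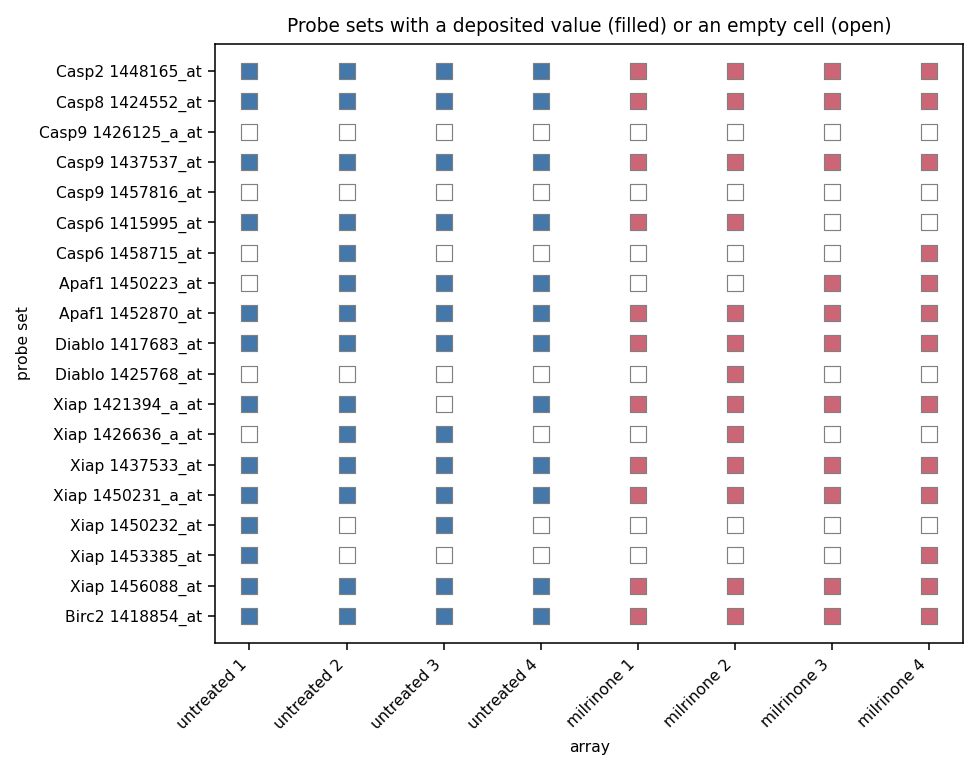
Each row is a member probe set and each column an array; a filled square (blue for untreated, red for milrinone) marks a deposited value and an open square an empty cell. Of the 19 rows, 9 are filled on all 8 arrays and 2 on none.

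Untreated 1 stood apart from the other arrays. Its median correlation with them over 14391 probe sets was 0.930, against 0.966 to 0.980 for the other 7. Oocyte markers were listed at 18 of 18 probe sets on every array, with summed intensities of 161540 to 194162 in untreated and 167311 to 178989 in milrinone samples. Markers of granulosa, cumulus and theca cells were listed at 25 to 36 of 47 probe sets in untreated and 11 to 19 in milrinone samples. They summed to 99099.5 on untreated 1, to between 22476 and 25144 on untreated 2 to 4, and to between 2861 and 4005 after milrinone, where 7 of 22 such genes, among them Star, Fst and Nr5a1, were empty on all 4 arrays. Of those 7, Amh alone was empty on all 4 untreated arrays too. Blood, stromal and endothelial markers were listed at 10 to 15 of 21 probe sets in untreated and 5 to 7 in milrinone samples, with summed intensities of 1552 to 8733 and 679 to 991. For the Actb array control the signal at the 3' end was 6.87 to 13.1 times that at the 5' end in untreated samples, and 11.6 to 20.4 times after milrinone. For the Gapdh control these ranges were 6.23 to 7.68 and 6.09 to 8.25. The part of these differences in the results on caspases and their inhibitors was not tested, except that values without untreated 1 are given. In these bulk samples fewer cells of a type and less RNA per cell cannot be told apart.

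Casp2 encodes an initiator caspase that is activated on a platform of its own, the PIDDosome. Its probe set had intensities of 760.2, 1001, 914 and 820.4 on untreated arrays 1 to 4 and 761, 909, 869.6 and 896 on milrinone arrays 1 to 4. The milrinone values lie inside the untreated range. The log2 difference was 0.15 with arrays centred on ribosomal proteins and -0.24 with quantile normalization. With the deposited scaling kept, it was -0.020 (95% interval -0.32 to 0.28, limma adjusted p = 0.964). This was the narrowest interval among the members, with a standard error of 0.14 against a median of 0.17 for all tested probe sets. It leaves room for a level between 0.799 and 1.22 times the untreated one.

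Casp8, the initiator caspase of death receptors, had 559, 596, 605 and 792 in untreated and 579.8, 914, 559.8 and 511 in milrinone samples. Milrinone 2 was the highest of the 8 arrays and milrinone 4 the lowest, so the untreated values fall within the milrinone range. The means were 638 ± 105 and 641 ± 184 (SD, n = 4 each), and the log2 difference was -0.018 (95% interval -0.46 to 0.43, limma adjusted p = 0.978). It was 0.15 with centring on ribosomal proteins and -0.26 with quantile normalization.

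Casp9, the initiator caspase of the mitochondrial route, was listed with 1 of its 3 probe sets. That probe set had 196, 144, 118 and 138 in untreated and 121, 65.0, 120.2 and 135 in milrinone samples. Untreated 1 was the highest array and milrinone 2 the lowest, while 3 milrinone values fell among the lower untreated ones. The log2 difference was -0.40 (SE 0.22, 95% interval -0.90 to 0.088, limma adjusted p = 0.558). It moved to -0.20 without milrinone 2, to -0.28 without untreated 1 and to -0.64 with quantile normalization. The exact two-sided permutation test of the 4 against 4 arrays gave p = 0.114, where the smallest p this design allows is 0.0286.

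Casp6, which encodes an executioner caspase that cleaves nuclear lamins, could not be tested. Its brighter probe set had 359, 84.2, 120.2 and 108 on untreated 1 to 4, and 86.0 and 90.5 on milrinone 1 and 2, with milrinone 3 and 4 empty. Apart from untreated 1, the listed values of both groups lie close together. It was listed on 4 untreated and 2 milrinone arrays. Of the 15931 probe sets listed on all 4 untreated arrays, 5.33% were listed on 2 or fewer milrinone arrays. The dimmer Casp6 probe set was listed on 1 array of each group, at 37.7 on untreated 2 and 40.2 on milrinone 4.

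Apaf1 encodes the scaffold of the apoptosome. Its brighter probe set had 167, 239, 202 and 135 in untreated and 205, 219, 201 and 189 in milrinone samples. The milrinone values sit within the untreated range and closer together, with an SD of 12.7 against 44.7. The log2 difference was 0.15 (95% interval -0.25 to 0.54, limma adjusted p = 0.777), and -0.090 with quantile normalization. A dimmer probe set of Apaf1 had 69.2, 78.7 and 68.3 on untreated 2 to 4 and 88.3 and 87.5 on milrinone 3 and 4, and was too sparsely listed to test.

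Diablo encodes the mitochondrial protein that displaces caspases from IAP proteins. Intensities of its brighter probe set were 434, 255, 243 and 199.96 in untreated and 254, 159, 225 and 250.2 in milrinone samples. Untreated 1 lay above all other arrays, and the remaining values overlap. The log2 difference of -0.29 (95% interval -0.83 to 0.24, limma adjusted p = 0.667) became -0.078 without untreated 1. The other Diablo probe set was listed on milrinone 2 at 67.6 and on no other array.

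**Figure D2:**
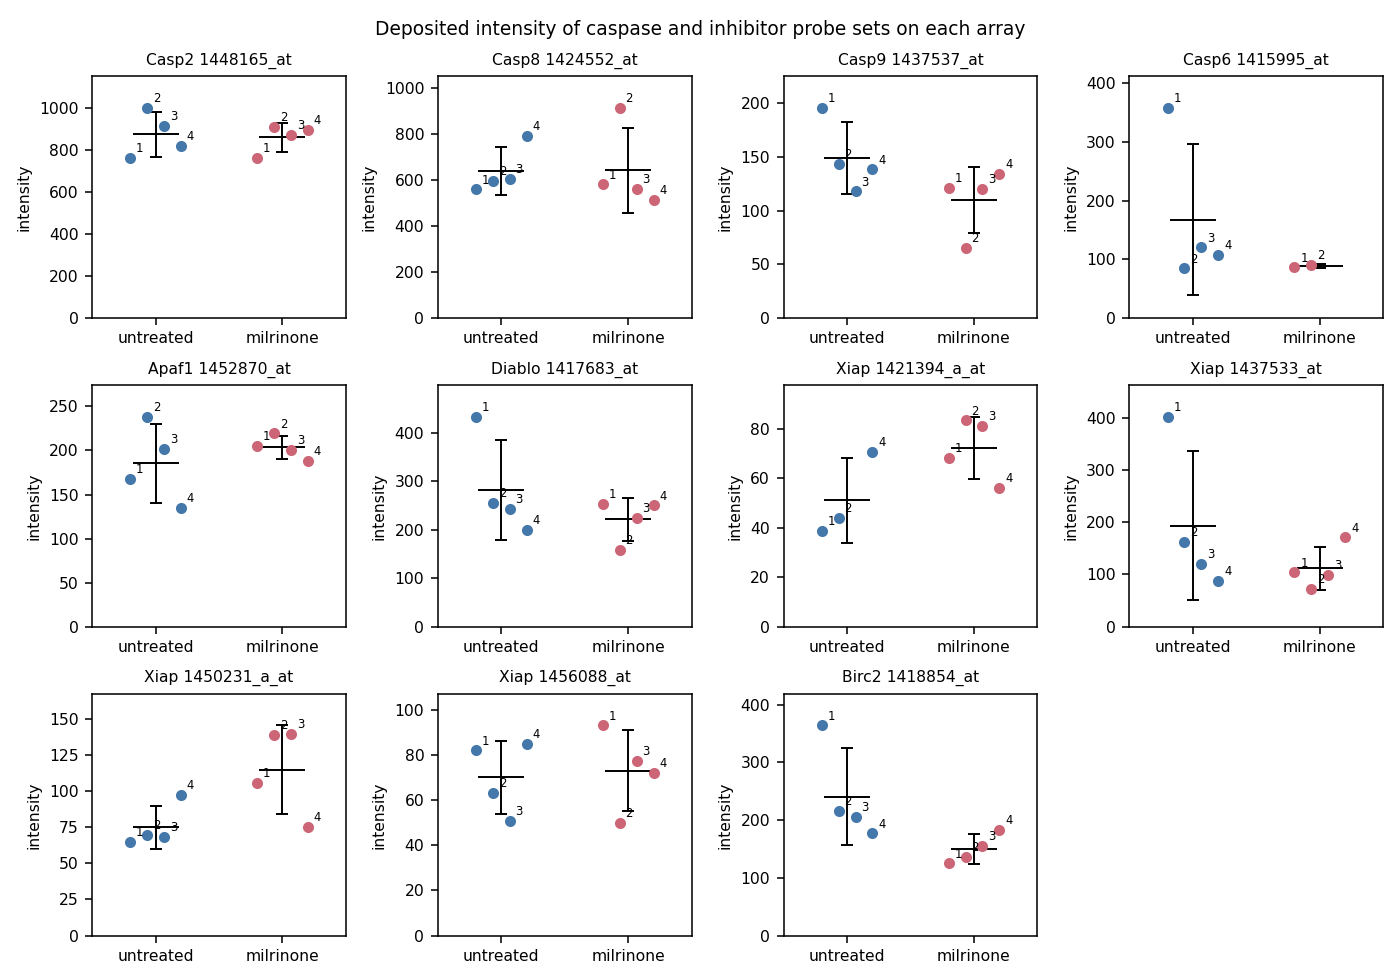
Deposited intensity (linear axis from 0) of the 10 tested probe sets and the brighter Casp6 probe set, in untreated (blue) and milrinone (red) samples; digits give the replicate, the bar the mean and the whiskers the SD. Untreated 1 is far above the other arrays for Casp6, Diablo, Birc2 and the Xiap probe set 1437533_at, and the groups overlap in every panel.

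Xiap encodes the IAP protein that binds and blocks caspase-9 and executioner caspases. It had 7 probe sets, of which 4 were tested. According to the annotation, 3 of the 7 were designed from one transcript sequence and 2 others from a second, so they are not independent. The suffix _a_at marks a probe set that matches several transcripts of one gene.

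The Xiap probe set 1450231_a_at had 64.8, 69.7, 68.2 and 97.2 in untreated and 106, 139, 139 and 75.0 in milrinone samples. Of the 4 milrinone arrays, 3 lay above every untreated array, while milrinone 4 lay below untreated 4. The log2 difference was 0.50 (SE 0.20, 95% interval 0.059 to 0.94), with an unadjusted p of 0.0299 and an adjusted p of 0.495 in limma. The exact two-sided permutation test gave p = 0.0571. Its companion from the same sequence, 1421394_a_at, had 38.7, 43.9 and 70.9 on untreated 1, 2 and 4 and 68.5, 83.5, 81.4 and 56.2 in milrinone samples. The array order resembles that of 1450231_a_at, with milrinone 4 the lowest of its group in both. Its log2 difference was 0.41 (95% interval -0.033 to 0.86, limma adjusted p = 0.522), fitted with untreated 3 left empty, and 0.92 with the empty cell set to 0.

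The other 2 tested Xiap probe sets came from a second sequence. Probe set 1437533_at had 402, 163, 119.7 and 88.3 in untreated and 104, 72.5, 99.8 and 171 in milrinone samples. Untreated 1 was far above the rest, and milrinone 4 was the second highest array. The log2 difference was -0.55 (SE 0.39, 95% interval -1.42 to 0.31, limma adjusted p = 0.623), the widest interval of the members, and -0.15 without untreated 1. Probe set 1456088_at, designed from the same sequence, had 82.1, 63.1, 50.7 and 84.9 in untreated and 93.2, 49.8, 77.3 and 72.2 in milrinone samples. It differed by 0.044 (95% interval -0.38 to 0.47, limma adjusted p = 0.945), and by -0.16 with quantile normalization.

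Whether the Xiap probe sets responded differently was tested on their log2 ratio within each array, over the 3 pairs listed on all 8 arrays and after their values were seen. The response of 1437533_at minus that of 1450231_a_at was -1.05 log2 units (exact two-sided permutation p = 0.200, unadjusted). Without untreated 1 that difference was -0.60 (exact permutation p = 0.400). The other pairs gave -0.60 for 1437533_at against 1456088_at (exact permutation p = 0.314) and 0.46 for 1450231_a_at against 1456088_at (exact permutation p = 0.257). So this test detected none of the 3 differences between Xiap probe sets, which does not show that the probe sets responded alike. The remaining 3 Xiap probe sets were dim, listed on 2 or 3 arrays at 15.4 to 27.2. Among them 1450232_at, from the same sequence as 1450231_a_at, was listed on untreated 1 and 3 alone, at 21.9 and 15.6.

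Birc2 encodes cIAP1, a ubiquitin ligase of the IAP family that acts in signalling from tumour necrosis factor receptors. Its single probe set had 364, 216, 206 and 177 in untreated and 125, 137, 155 and 183 in milrinone samples. The 3 highest arrays were untreated and the 3 lowest were milrinone, and the groups overlap because milrinone 4 lay above untreated 4. The log2 difference was -0.59 (SE 0.22, 95% interval -1.08 to -0.10), with the smallest unadjusted p of the members, 0.0222, and an adjusted p of 0.483 in limma. On this scale the milrinone level was 0.664 times the untreated one. The exact two-sided permutation test gave p = 0.0571, and p under 0.05 in that test was reached by 0 of the 9 member probe sets listed on all arrays, where 6.75% of all probe sets so listed had groups without overlap. Without untreated 1 the difference was -0.39 (unadjusted p = 0.0378, adjusted p = 0.597 in limma).

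**Figure D3:**
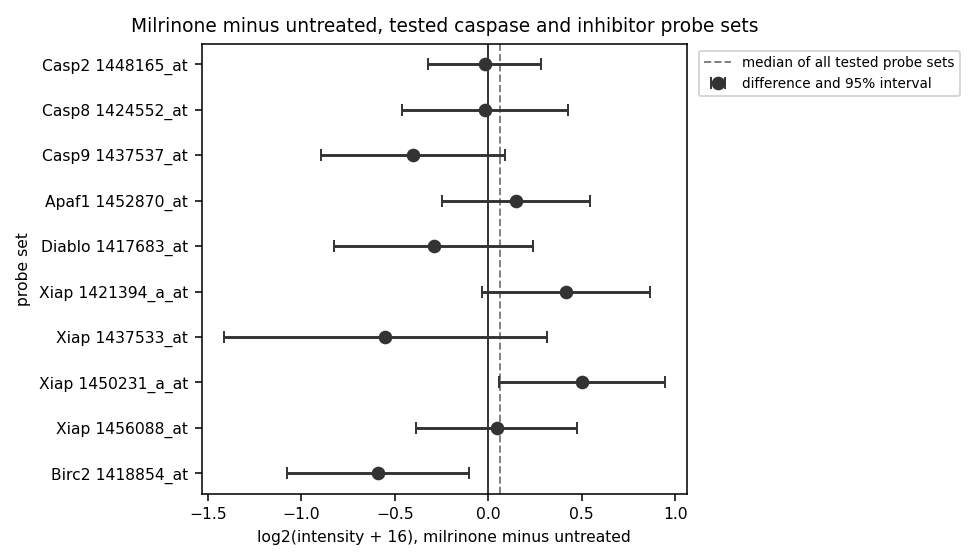
Difference of log2(intensity + 16), milrinone minus untreated (horizontal axis), with its 95% interval from limma for the 10 tested probe sets; the dashed line is the median of all tested probe sets, 0.063. The intervals of Birc2 (-1.08 to -0.10) and of Xiap 1450231_a_at (0.059 to 0.94) do not cross 0, and the other 8 do.

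A high value on untreated 1 recurred among the members. Of the 9 probe sets listed on all arrays, 4 were highest there, those of Casp9, Diablo and Birc2 and 1437533_at of Xiap, against 15.9% of the 14391 probe sets so listed. Lowest on untreated 1 were 2 of the 9, of Casp2 and of Xiap (1450231_a_at), against 39.6%. On the log2 scale untreated 1 exceeded the mean of the other 7 arrays by 1.70 for 1437533_at of Xiap, 1.04 for Birc2, 0.91 for Diablo and 0.67 for Casp9, while the median over all 14391 was -0.19. The Casp6 value there exceeded the mean of the other 5 listed arrays by 1.73. These 5 probe sets share the array on which markers of granulosa, cumulus and theca cells summed highest, and the part of those cells in the values was not tested. A larger SD of log2 values in untreated than in milrinone samples was found for 5 of the 9, against 77.1% of all probe sets so listed.

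The genes whose array pattern was most like each member's brightest probe set listed on all arrays were looked up by Pearson correlation over the 8 arrays. The closest to Birc2 was Syap1 (r = 0.99, Spearman's rho 1, and r = 0.97 without untreated 1 and milrinone 1). Hdac1 was closest to Xiap 1437533_at (r = 0.99, rho 0.95, and r = 0.96 without untreated 1 and milrinone 4). For Diablo it was 2810004N23Rik (r = 0.99, rho 0.90) and for Casp9 Poldip3 (r = 0.96, rho 0.88), whose r dropped to 0.83 and 0.80 without the 2 arrays farthest from the median, untreated 1 and milrinone 2 in both cases. Btf3l4 was closest to Casp2 (r = 0.98, rho 0.95), Commd9 to Casp8 (r = 0.97, rho 0.98) and Plekhj1 to Apaf1 (r = 0.98, rho 0.95). Each is the highest of 13303 to 13305 correlations, so high values arise by selection and no p is given.

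Other genes of the pathway were taken as 5 lists of 41 genes, of which 37 were analysed here through probe sets with a single symbol. Of their 83 probe sets, 31 were tested, standing for 18 genes, and none passed the limma test (0 higher and 0 lower, adjusted p from 0.485 to 0.993), against 0.117% of all tested probe sets. At an unadjusted p under 0.05 in limma there were 2 of the 31, against 9.63% of all tested. Their median log2 difference was -0.0022, with 15 above and 16 below 0. Over all tested probe sets the median was 0.063, with 38% below 0.

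The list of other caspases held 7 genes, 1 of them the gene of a caspase-8 associated protein, and 2 were tested. That gene, Casp8ap2, differed by 0.18 (95% interval -0.25 to 0.60), and Casp14, a caspase known from skin, by 0.12. The Casp14 value came from 1443787_x_at with untreated 4 left empty, while its other probe set was empty on all arrays. Among other IAP genes, 4 of 9 were tested, with a median of 0.0092. Birc3, which encodes cIAP2, had 11007 to 13896 in untreated samples and 12531 to 14150.0 after milrinone in 1421392_a_at, which differ by 0.069 (95% interval -0.11 to 0.25). Another Birc3 probe set, 1425223_at, was empty on all arrays. Naip6, a sensor of bacterial proteins with IAP repeats, differed by -0.15 (95% interval -0.56 to 0.25). Birc6, a large IAP protein that conjugates ubiquitin, differed by 0.12 in its brighter and -0.10 in its dimmer tested probe set.

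Of the proteins released from mitochondria, 4 of 5 genes were tested, with a median of 0.026. Cycs, which encodes cytochrome c, gave unequal values. Its probe set 1422484_at had 675, 368, 209 and 228 in untreated and 145, 142, 173 and 245 in milrinone samples, highest on untreated 1 and with overlapping groups. It differed by -0.88 (95% interval -1.63 to -0.14, limma adjusted p = 0.485), whereas 2 brighter probe sets of Cycs differed by 0.061 and 0.064, with intervals from -0.11 to 0.23 and from -0.14 to 0.26. Htra2, a mitochondrial protease that also antagonises IAP proteins, differed by 0.24 and -0.037 in its 2 probe sets, and the nuclease gene Endog by -0.023 and 0.059.

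Death receptors and caspase adaptors had 3 of 12 genes tested, with a median of 0.19. Fadd, the adaptor that recruits caspase-8, had 388 to 481 in untreated samples and 451 to 589.9 after milrinone, which differ by 0.29 (95% interval -0.039 to 0.63, limma adjusted p = 0.533). Tradd, an adaptor of tumour necrosis factor receptors, differed by 0.19. Cflar, which encodes the caspase-8 inhibitor FLIP, differed by -0.30 (95% interval -0.75 to 0.15) in its tested probe set, with milrinone 2 left empty. A brighter Cflar probe set had 269, 226, 226 and 106 in untreated samples and was listed in milrinone on replicate 4 alone, at 74.2. Of all probe sets listed on all 4 untreated arrays, 5.33% were listed on 2 or fewer milrinone arrays. Other untested Cflar probe sets were 1425686_at, listed on 3 untreated arrays and 1 milrinone array, and 1449317_at, listed on untreated 1 and 2 alone. A further one, 1453482_at, was empty on all arrays.

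Of the caspase substrates 5 of 8 genes were tested, with a median of -0.069. Lmna, which encodes the lamins that caspase-6 cleaves, differed by 0.24 (95% interval 0.0044 to 0.48, limma adjusted p = 0.514) in its brightest probe set and by 0.15 and -0.048 in the other tested ones. Acin1, a chromatin protein cleaved in apoptosis, differed by -0.48 and -0.24. Parp1, the DNA damage sensor whose cleavage is a common sign of caspase activity, differed by -0.25 (95% interval -0.58 to 0.075, limma adjusted p = 0.569), -0.14 and -0.11. The first of these had 368 to 497 in untreated and 316 to 366 in milrinone samples, groups that do not overlap, as 6.75% of all probe sets listed on all arrays.

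**Figure D4:**
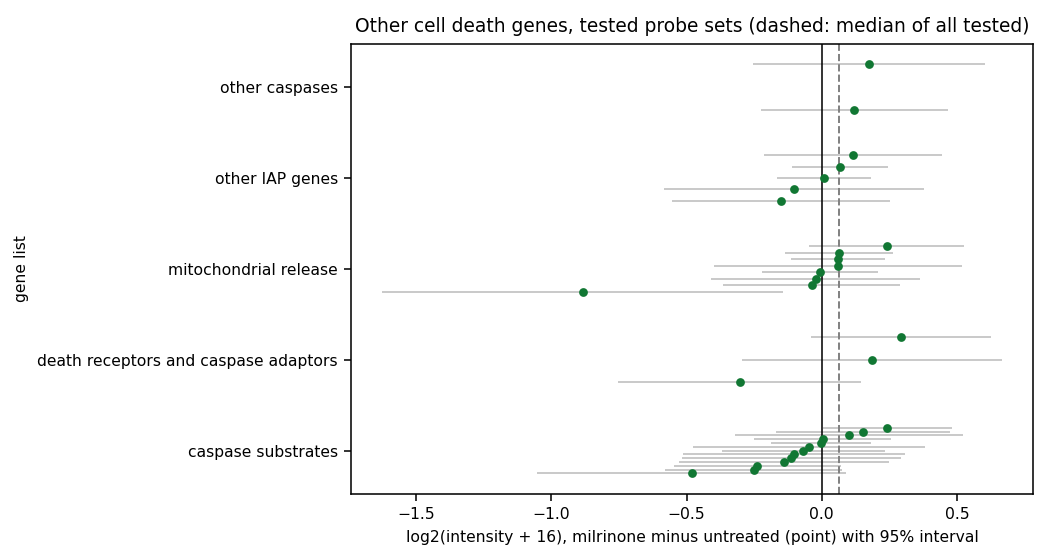
Difference of log2(intensity + 16), milrinone minus untreated, with 95% intervals for the 31 tested probe sets of the 5 lists, 1 point each; the dashed line is the median of all tested probe sets. The point farthest from 0 is the Cycs probe set 1422484_at at -0.88.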

How the data were processed

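The authors deposited 1 table of intensity values per probe set on a linear scale for 8 arrays, per the labels from biotinylated cRNA of 4 untreated and 4 milrinone samples. The software, scaling target and reason for empty cells are not stated in the labels or file. Array number limits the precision. Gene names came from the platform annotation, with symbols of other genes updated to RefSeq (GRCm38.p6), and of 45037 probe sets other than controls 34945 had 1 symbol. No coordinates or sequences are given.

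The deposited scaling was kept and log2(intensity + 16) was fitted by lmFit and trended eBayes of limma 3.58.1 (R 4.3.3), leaving empty cells out and adjusting by Benjamini-Hochberg over 16288 probe sets. The log2 differences understate changes of dim probe sets. Exact permutation tests used scipy 1.17.1 in Python 3.11.15, with plots by matplotlib 3.10.9. The limma script was tested on simulated data. Members, lists and tests were chosen with earlier results of these data known. Genes named were all members, up to 3 tested genes per pathway list with the smallest p, and for each member but Casp6 the gene of highest correlation. Some cell type markers, the array controls Actb and Gapdh, and Tnfrsf1a, picked after its values were seen, were named too. The 21 alternatives covered pseudocount, listing, dim probe sets, scaling, empty cells, variance model, replicate block and left-out arrays.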

Additional observations from a re-analysis of the deposited data

Results flagged for a closer look

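Of 66 groups of 4 listed values examined for the members and the named pathway genes, 1 had an array far from the other 3, where chance picks out about 1 in 20, or 3.3. It was Casp9 (1437537_at) in milrinone samples, where milrinone 2 was lowest at 65.0 against 120.2 to 135 on the other 3. The gap was measured on the log2 scale used for the limma fit, not on the intensities printed here. On that log2 scale the gap took up 0.839 of the range of the group, more than Dixon's test allows at the 95% level. The result holds for that scale only, and a linear scale can pick out other groups.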

How the results depend on the processing

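No member and no pathway probe set passed the limma test under any of the 21 alternatives, with a lowest adjusted p of 0.211 for members (array weights) and 0.290 for pathway genes. Birc2, Casp9, Diablo and the other 3 tested Xiap probe sets kept their sign wherever fitted. Centring on ribosomal proteins gave 0.15 for Casp2 and 0.15 for Casp8, and took the median over the whole table from 0.063 to 0.23. Quantile normalization gave -0.24 for Casp2, -0.26 for Casp8, -0.090 for Apaf1 and -0.16 for Xiap 1456088_at, and moved that median to -0.13. Without untreated 1 and 4, Casp8 was 0.054 and Apaf1 -0.10. Leaving out 1 array at a time gave -0.083 to 0.047 for Casp2, -0.20 to 0.088 for Casp8 and -0.072 to 0.18 for Xiap 1456088_at. The median of the members was -0.25 with quantile normalization and 0.15 with ribosomal centring, both over 10 probe sets. With a mean intensity of at least 100 it was -0.29, over 7 probe sets. Each of these 7 kept its log2 difference, so only the set behind the median changed. Without untreated 1 and 4 the median was -0.16, over 9 probe sets. The cause of the other shifts was not tested. With arrays centred on the median, 1 of 9 member probe sets, that of Birc2, had an unadjusted p under 0.05 in the exact permutation test. Its limma adjusted p there was 0.507. The share of all probe sets reaching that exact p with this centring is not given here. The count was 0 under the other 4 alternatives the exact test was run with (both other pseudocounts, quantile normalization and ribosomal centring).

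The count of called probe sets in the whole table, 19, was 12 with listing on all 8 arrays, 5 with empty cells at 0, 53 with ribosomal centring, 106 with array weights, 85 without untreated 1 and 4, and 8 (without milrinone 3) to 69 (without untreated 1) with 1 array left out. With the replicate block it was 13. Same-numbered arrays deviated from their group means with correlations of -0.27 to 0.03. Differently numbered arrays were not compared, so whether the numbers pair the samples cannot be told from these values.

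Empty cells left 9 member probe sets untested, and with 4 arrays a group the members' standard errors ran from 0.14 to 0.39.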

Other observations

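Of the pathway genes that could not be tested because of empty cells, 1 is given here. It was picked after its values were seen and does not stand for the others. Tnfrsf1a, which encodes a receptor of tumour necrosis factor, had 639 on untreated 1 and 161, 187 and 202 on the other untreated arrays, and was empty on all 4 milrinone arrays. Of the 15931 probe sets listed on all 4 untreated arrays, 5.33% were listed on 2 or fewer milrinone arrays. Some untested probe sets of the lists went the other way, such as 1446499_at of Fadd, listed on milrinone 4 alone. Probe sets of death receptors and caspase adaptors were listed at 11, 7, 5 and 8 of 21 on untreated arrays 1 to 4 and at 4, 3, 4 and 5 on milrinone arrays 1 to 4. Of all 45101 probe sets, 51.6, 47.0, 44.4 and 41.9% were listed on untreated arrays 1 to 4 and 41.3 to 43.1% on milrinone arrays. The 5 lists together had 38 to 47 of 83 probe sets listed in untreated and 34 to 38 in milrinone samples, beside those shares of the whole table. Whether these lists differ from the whole table in this was not tested.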
